A study of Mus musculus with 34 samples.

Results

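The 10 genes followed here are widely used to recognise pericytes. They were measured in the GFP+ cells of mouse ear skin titled Smoothmuscle: *Rgs5*, *Kcnj8*, *Abcc9*, *Higd1b*, *Steap4*, *Pdgfrb*, *Cspg4*, *Mcam*, *Cox4i2* and *Ndufa4l2*. The genes were chosen by name, and all 10 were found among the 20213 genes measured outside the predicted genes named Gm plus digit. The Smoothmuscle cells came from C57BL/6J mice that carried the transgene Myh11GFP/+, a GFP reporter of the smooth muscle myosin gene *Myh11*, and were sorted as CD45-GFP+ cells into 4 libraries, numbered 13 to 16. The study used mice of 7 to 12 weeks for all genotypes. The number of Smoothmuscle mice is not given in the sources used here, so the libraries count as 1 sample and no test was made between cells. By the study, the sort was set on bright GFP vascular smooth muscle cells and also took some dimmer pericytes and a small share of fibroblasts. The reporter of 1 of the ordering genes thus shaped which cells were sampled. Mast cells served as the background: 3 wt mice (labelled C57BL/6J Mcpt5 Cre R26LSLYFP) and 3 KO mice, their littermates, that also carried Tln1fl/fl, all males of 7 weeks and all with the mast cell-specific Mcpt5 Cre+/- driver and its YFP reporter, sorted as CD45+YFP+ cells. By the study's methods the Tln1fl/fl reporter crosses were on the albino C57BL/6J background (Tyr c-2J/c-2J) and the Myh11 reporter mice were not, so cell type and this allele cannot be told apart between the groups. All libraries came from ears digested with enzyme before sorting, and the labels name no treatment.

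Pericytes wrap capillaries and venules, whereas vascular smooth muscle cells (VSMCs) ring arterioles and larger vessels; together they are called mural cells. Platelet-derived growth factor from the endothelium recruits them through the receptor PDGFRβ. Contractile genes such as *Acta2* and *Myh11* are high in VSMCs and low in most pericytes, so the summed level of both was used to order the cells. *Kcnj8* and *Abcc9* encode the pore and the sulfonylurea receptor subunit of the ATP-sensitive potassium channel of vascular cells, and *Rgs5* encodes a regulator that turns off G protein signals. *Mcam* (CD146) is an adhesion molecule and *Cspg4* encodes the proteoglycan NG2. *Steap4* encodes a metalloreductase, *Ndufa4l2*, *Cox4i2* and *Higd1b* encode mitochondrial proteins, the first of them known as a target of hypoxia signalling.

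All levels are transcripts per 10000 transcripts outside the Gm genes, from mCEL-Seq2, in which each captured molecule is counted once by its unique molecular identifier (UMI), whatever the length of its RNA. After the filter of over 1000 transcripts, 330 Smoothmuscle cells remained, 93, 78, 86 and 73 in libraries 13, 14, 15 and 16, with a median of 3915 transcripts outside Gm genes. Library 16 was the shallowest, with a median of 2168 and 19 of the 23 cells at or under 1000 transcripts outside Gm genes. The sum of *Acta2* and *Myh11* lay under 50 per 10000 in 176 cells and at 50 or over in 154. This cut lies in a continuous range and marks no gap: 149 cells lay between 25 and 100, 46 lay between 40 and 60, and the nearest cells on both sides were at 49.6 and 50.3. Median depth was similar in both ranges, 3915 and 3928.

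The cells were checked against their label: *Acta2* had a UMI in 304 and *Myh11* in 272 of the 330 cells, and the mast cell protease gene *Cpa3* had 1 transcript in all. Some barcodes carried transcripts of other cell types. Of the 330 barcodes, 8 lay in the set of 96 barcodes that held no other cell of their library; they are 4 barcodes, each found in 2 libraries, all under the cut. Their mitochondrial share was 69.7 to 80.0%, against a median of 15.1% in the other 168 cells under 50, genes of striated muscle stood at 266 per 10000 against 3.58, and all 8 together held 9 UMIs of the members. The labels give 92 cells per library, and library 13 kept 93 barcodes with 2 of these included. Fibroblast genes, a list of 10 led by collagens, were at 308 per 10000 in cells under 50 (237 to 512 by library) and 55.8 in the others (34.4 to 74.3), and 66 and 28 cells, respectively, had at least 1% of their transcripts from them. The VSMC list was at 63.2 under 50 and at 244 over it, of which *Acta2* and *Myh11* were the rule itself, and endothelial genes were at 1.64 and 0.062. The barcodes of the set without other cells held 0.513 *Rgs5* UMIs on average, against 49.0 per cell, so a single *Rgs5* UMI cannot be told apart from stray RNA. The member levels and their ratios between the ranges were therefore computed again without the 8 barcodes and without the cells of other types. The same was done for the share of cells with at least 5 members and for *Kcnj8* with *Abcc9* under 50. The fit of wt against KO mast cells was repeated in the same ways. The finer steps, the other pairs, the other gene lists and the genes most like the members were not computed again. Beyond that, the part of other cells in the results was not tested.

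Sequence before the starts of 4 of the 5 members that differed between the ranges by at least 2-fold is shown, since they carry the comparison below and *Kcnj8* and *Abcc9* are neighbours on chromosome 6. In GENCODE M21 for GRCm38, *Kcnj8* (chr6:142564837-142571614) and *Abcc9* (chr6:142587862-142702315) lie on the same strand with 16247 bases between them and no overlap. RefSeq, build GRCm38.p6, gave the 250 bases before the start for 6 of the 10 members. The starts of both annotations differ: by GENCODE 189 bases of the *Mcam* window lie inside the gene, and 71, 41 and 15 of those of *Cspg4*, *Abcc9* and *Steap4*. Only the bases before both starts are printed, read 5′ to 3′ on the gene's own strand, and *Mcam* is left out. Capitals mark TGGGAA, the core bound by the Notch effector RBPJ, and GGGCGG, the GC box, each on either strand.
Kcnj8, chr6:142571615-142571864, - strand: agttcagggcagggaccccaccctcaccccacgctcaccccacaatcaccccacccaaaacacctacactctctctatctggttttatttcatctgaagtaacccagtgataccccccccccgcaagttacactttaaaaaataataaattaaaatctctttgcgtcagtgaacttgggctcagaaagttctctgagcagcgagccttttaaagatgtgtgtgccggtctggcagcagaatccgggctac
Abcc9, chr6:142702316-142702524, - strand: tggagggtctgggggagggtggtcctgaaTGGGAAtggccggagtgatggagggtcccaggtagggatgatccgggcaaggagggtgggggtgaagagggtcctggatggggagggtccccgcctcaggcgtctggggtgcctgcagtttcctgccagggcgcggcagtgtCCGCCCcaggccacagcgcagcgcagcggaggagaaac
Steap4, chr5:7960222-7960456, + strand: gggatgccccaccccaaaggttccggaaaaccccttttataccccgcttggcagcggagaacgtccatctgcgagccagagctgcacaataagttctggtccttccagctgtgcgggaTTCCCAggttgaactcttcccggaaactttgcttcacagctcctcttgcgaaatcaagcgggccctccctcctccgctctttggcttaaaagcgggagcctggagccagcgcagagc
Cspg4, chr9:56864854-56865032, + strand: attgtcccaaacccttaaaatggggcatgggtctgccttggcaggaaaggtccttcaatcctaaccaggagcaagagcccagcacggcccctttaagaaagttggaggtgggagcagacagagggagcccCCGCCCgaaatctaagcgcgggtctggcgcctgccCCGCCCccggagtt
GGGCGG was found 2 times before *Cspg4* and 1 time before *Abcc9*, and 32.7% of all 32851 RefSeq windows of 250 bases hold it. The *Mcam* window held it 5 times, all inside the gene as GENCODE places it. TGGGAA was found before *Abcc9* and *Steap4*, and 21.6% of all windows hold it. The CArG box, the element of contractile genes, was in none of these 5 windows and in 1.47% of all. These are matches of letters only, and no factor binding was measured.

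*Rgs5* (GRCm38 chr1:169655501-169695813, + strand) was by far the most abundant member. It was at 118, 108, 115 and 111 per 10000 in libraries 13, 14, 15 and 16 (pooled 113.7, 95% Poisson interval 112.0 to 115.4), the 7th highest of 14907 genes found, and it made up 83.6% of all member transcripts. The 4 libraries lay close together, within 1.09-fold of each other. At least 1 UMI was found in 315 of 330 cells (95.5%, exact binomial interval 92.6 to 97.4) and at least 5 UMIs in 272 cells (82.4%). The quartiles over cells were 53.3 and 159.7, with a median of 105.6.

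The receptor and the surface proteins came next. *Mcam* (chr9:44134469-44142727, + strand) was at 5.50, 5.29, 6.64 and 5.28 in the 4 libraries (pooled 5.71, 5.33 to 6.12). *Pdgfrb* (chromosome 18) was at 4.64, 5.32, 5.05 and 5.01 (pooled 4.97, 4.62 to 5.35). The intervals of both overlap, and their order was not tested. *Mcam* was the higher in libraries 13, 15 and 16 and not in library 14. Each was found in about the same number of cells, 232 and 228. *Cspg4* (chr9:56865033-56899870, + strand) was lower, at 1.53, 1.54, 1.59 and 0.948 (pooled 1.46, 1.27 to 1.67), with library 16 below the other libraries.

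The channel genes and *Steap4* were found in a minority of cells. *Abcc9* was at 2.89, 3.22, 1.78 and 2.62 (pooled 2.64, 2.38 to 2.92) and had UMIs in 139 cells (42.1%). *Kcnj8* was at 1.65, 1.93, 1.38 and 1.81 (pooled 1.67, 1.47 to 1.90) and had UMIs in 99 cells (30.0%). *Steap4* (chr5:7960457-7982213, + strand) was at 1.55, 3.14, 1.65 and 1.63 (pooled 1.99, 1.76 to 2.23) and had UMIs in 74 cells (22.4%). Library 14 was 2.03 times the lowest library for *Steap4*, and without it the pooled level was 1.60. *Steap4* was also the most concentrated of the 9 members with over 10 transcripts: 33 cells held 82.2% of its transcripts, against 33.9% of *Rgs5*, 66.0% of *Kcnj8* and 52.9% of *Abcc9*.

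The genes of mitochondrial proteins differed widely. *Ndufa4l2* (chr10:127514967-127517154, + strand), a relative of a respiratory chain subunit gene, was at 3.13, 2.37, 3.27 and 3.52 (pooled 3.04, 2.76 to 3.33) and was found in 196 cells (59.4%). *Higd1b* (chr11:102835849-102838040, + strand) was at 0.585, 0.881, 0.611 and 0.722 (pooled 0.688, 0.559 to 0.837) and was found in 60 cells (18.2%). *Cox4i2* (chr2:152754173-152765037, + strand), which encodes an isoform of a cytochrome c oxidase subunit, had only 10 transcripts in 8 cells. *Abcc9*, *Mcam* and *Ndufa4l2* each overlap a gene on the other strand, and the authors mapped reads in the sense direction. The common isoform gene *Cox4i1* was at 3.48 under 50 and at 3.66 over it. In order of level the members were *Rgs5*, *Mcam*, *Pdgfrb*, *Ndufa4l2*, *Abcc9*, *Steap4*, *Kcnj8*, *Cspg4*, *Higd1b* and *Cox4i2*; besides *Mcam* and *Pdgfrb*, the intervals of *Ndufa4l2* and *Abcc9*, of *Steap4* and *Kcnj8*, and of *Kcnj8* and *Cspg4* overlap.

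**Figure D1:**
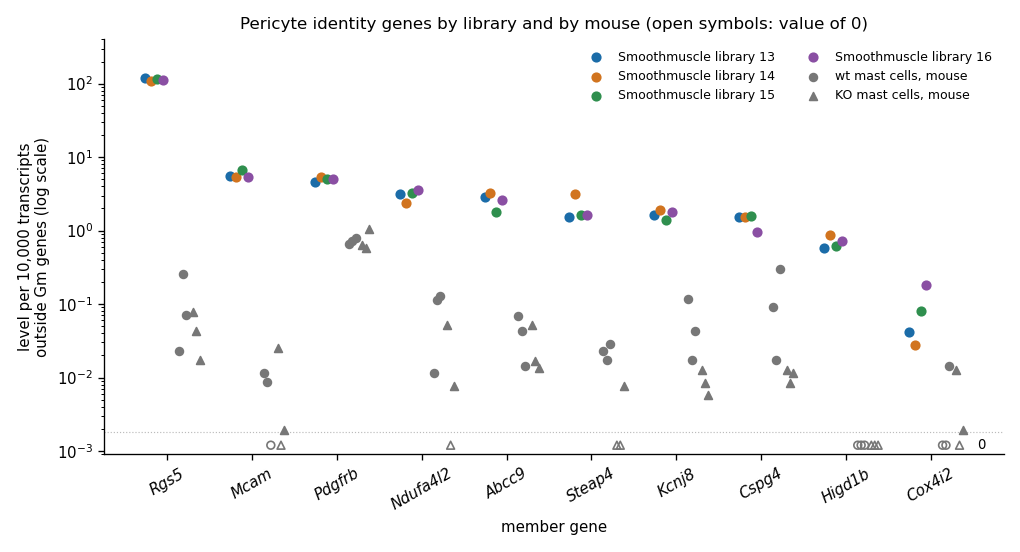
Level of each member per 10000 transcripts outside Gm genes on a log scale, for the 4 Smoothmuscle libraries (coloured points) and for the 3 wt and 3 KO mice whose mast cells served as background (grey circles and triangles, open where the value is 0). *Rgs5* stands near 114 in all 4 libraries, and *Pdgfrb* is the member with the highest level in mast cells.

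The comparison along *Acta2*+*Myh11* asked whether genes used to recognise pericytes follow cells with few contractile transcripts. Of 9 members with at least 20 transcripts, 3 were at least 2-fold higher under 50, *Steap4*, *Abcc9* and *Kcnj8*, and 2 were at least 2-fold higher at 50 or over, *Cspg4* and *Mcam*. Over all 7559 genes with at least 20 transcripts, 8.69% were at least 2-fold higher under 50 and 6.09% at 50 or over, and the median ratio was 0.97. The other 4 members, *Rgs5*, *Pdgfrb*, *Ndufa4l2* and *Higd1b*, differed by less than 2-fold. With 1 sample these are descriptions of its cells, and the intervals below cover counting error only.

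*Steap4*, *Abcc9* and *Kcnj8* are taken first. *Steap4* was at 2.18, 5.09, 3.19 and 2.48 in cells under 50 of libraries 13 to 16 and at 0.784, 0.207, 0.252 and 0.124 in cells at 50 or over. Every library was higher under 50, and the value over 50 rests on 26 transcripts in all. The pooled levels were 3.25 and 0.406, a ratio of 8.01 (5.34 to 12.5); without library 13, which held 17 of these 26, it was 17.8. It was 17.5 with Gm genes in the total, and 3.93 and 37.1 with the cut at 25 and at 100.

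*Abcc9* was at 4.01, 4.95, 3.19 and 3.69 under 50 and at 1.52, 0.622, 0.505 and 0.745 at 50 or over. The lowest library under 50 lay above the highest over 50. The pooled levels were 4.03 and 0.906, a ratio of 4.44 (3.35 to 5.98), and 6.83 without library 13. With the cut at 25 and at 100 it was 2.15 and 12.1.

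*Kcnj8* was at 2.75, 2.52, 2.13 and 2.13 under 50 and at 0.323, 1.04, 0.707 and 1.24 at 50 or over. The libraries of both ranges did not overlap here either, but the ratio within libraries went from 1.71 in library 16 to 8.52 in library 13. The pooled levels were 2.44 and 0.719, a ratio of 3.39 (2.45 to 4.79), and 2.05 and 8.73 with the cut at 25 and at 100. Both subunits of the channel were thus higher in the same range in all 4 libraries, as 11.8% of all genes were.

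*Cspg4* lay the other way. It was at 0.458, 0.366, 0.672 and 0.284 under 50 and at 2.81, 3.32, 2.42 and 2.11 at 50 or over. Pooled, it was at 0.450 and 2.72, 6.04-fold higher over 50 (4.20 to 8.91), and 2.93-fold with the cut at 100; the ratio of the level under 50 to that over 50, 0.17, was 0.27 as a mean over cells. Only 0.37% of all genes tested had a lower ratio of the level under 50 to that over 50. *Mcam* was at 3.48, 3.57, 4.26 and 3.90 under 50 and at 7.94, 7.88, 8.79 and 7.70 at 50 or over, 2.18-fold higher pooled (1.88 to 2.51) and between 1.97 and 2.28 in each library. As a mean over cells or after thinning to 1000 UMIs its ratio of the level under 50 to that over 50 was 0.53 in place of 0.46, under 2-fold. Both were higher over 50 in all 4 libraries, as 1060 of all 7559 genes were (14%).

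*Pdgfrb*, which both kinds of mural cell carry, was at 4.89, 6.36, 6.05 and 5.46 under 50 and at 4.34, 3.73, 4.14 and 4.22 at 50 or over. It was higher under 50 in every library, with a pooled ratio of 1.37 (1.17 to 1.60), and 1.03 and 2.05 with the cut at 25 and at 100. *Rgs5* was at 107.8, 116.0, 100.01 and 99.5 under 50 and at 130.0, 96.8, 128.5 and 131.6 at 50 or over. It was higher at 50 or over in 3 libraries and lower in library 14, with a pooled ratio of 0.87 (0.85 to 0.90). The direction turned with the cut at 100 (1.16) and as a mean over cells (1.02), so no direction is given for *Rgs5*. *Ndufa4l2* (2.73 and 3.42, ratio 0.80, 0.66 to 0.97) was lower under 50 in all 4 libraries, and *Higd1b* (0.788 and 0.562, ratio 1.40, 0.92 to 2.2) was higher in 2 libraries, lower in 2 and turned with the cut at 25 (0.82). The ratio of *Ndufa4l2* was 0.60 and 0.99 with the cut at 25 and at 100, and 0.97 without cells of other types. All 10 *Cox4i2* transcripts were in cells under 50, at a level 2.67-fold above that of 3 counts over the cells at 50 or over. With counting error the interval of its ratio began at 1.79.

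**Figure D2:**
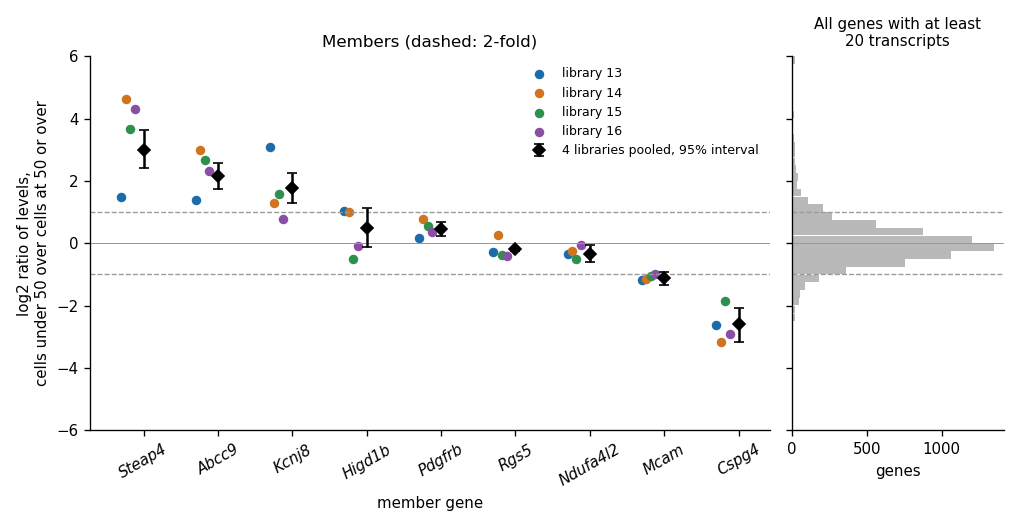
Left, log2 of the level in cells under 50 over that in cells at 50 or over for the 9 members with at least 20 transcripts, for each library (coloured points) and pooled with 95% counting intervals (black); right, the same ratio for 7559 genes in bins of 0.25 log2. *Steap4*, *Abcc9* and *Kcnj8* lie above the upper dashed line of 2-fold, and *Mcam* and *Cspg4* below the lower one.

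Finer steps of *Acta2*+*Myh11* showed that the members did not share 1 shape. *Kcnj8*, *Abcc9* and *Steap4* were highest from 5 to 20 per 10000, at 3.84, 5.31 and 5.31, and not in the 33 cells under 5, where they were at 0.703, 1.57 and 0.811. *Steap4* then went from 2.83 (20 to 50) through 0.702 (50 to 100) to 0.073 (100 to 200), which is 2 transcripts in 66 cells. *Rgs5* was highest from 20 to 50, at 153.7, with 140.8 from 50 to 100, and was low at both ends, at 20.6 under 5 and 21.1 at 200 and over. *Pdgfrb* (6.88) and *Ndufa4l2* (4.02) had their highest values in that same step from 20 to 50.

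*Mcam* instead went up with each step, from 1.03 through 3.56, 5.45, 6.64 and 9.78 to 11.4. *Cspg4* was at 0.433, 0.279 and 0.608 in the 3 steps under 50 and at 2.43 and 3.14 in the next 2. The last step held only 7 cells; without it the order of the other steps stands as given. The first step held 5 of the 8 barcodes with striated muscle genes and had fibroblast genes at 844 per 10000, against 211 and 90.3 in the next steps, and its low member levels move with both.

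**Figure D3:**
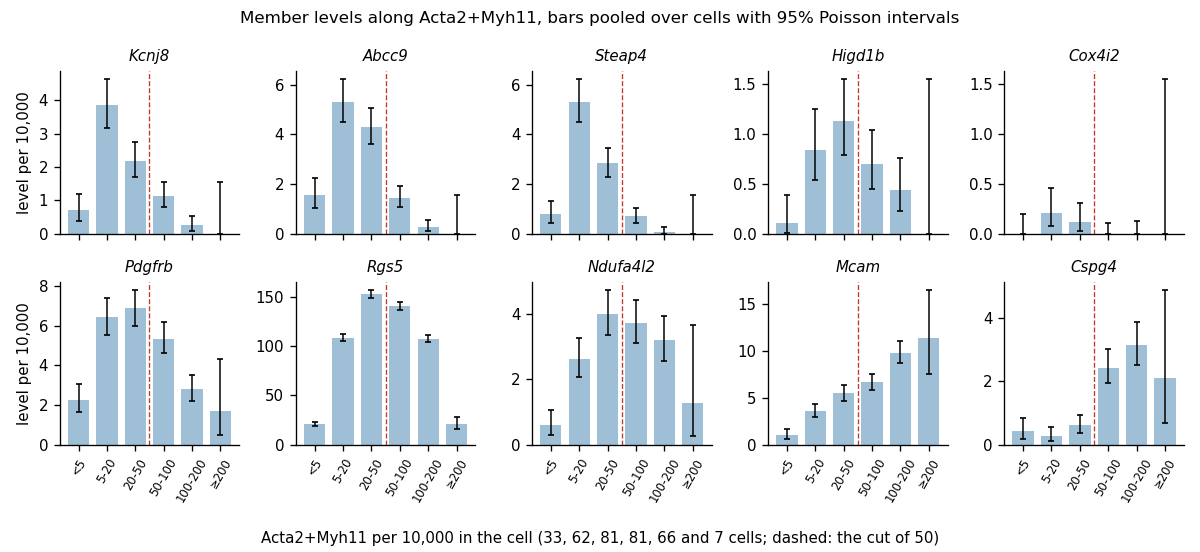
Level of each member per 10000 in 6 steps of *Acta2*+*Myh11* with 33, 62, 81, 81, 66 and 7 cells; bars are pooled over cells, error bars are 95% Poisson intervals and the dashed line marks 50. *Kcnj8*, *Abcc9* and *Steap4* peak from 5 to 20, *Rgs5* from 20 to 50, and *Mcam* goes up to the last step.

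Because fibroblast genes moved with the lower range, the members were compared again between cells with and without at least 1% of transcripts from any list of another cell type. Of the 176 cells under 50, 82 had such a share, and of the 154 others 28. Without these cells the ratio of the level under 50 to that over 50 was 16.7 for *Steap4*, 7.04 for *Abcc9* and 3.97 for *Kcnj8*, so all 3 were at least as far apart as with them. *Mcam* was then 1.75-fold higher over 50, under 2-fold, and *Cspg4* 5.01-fold. The ratio of *Rgs5* turned from 0.87 to 1.16, as its level under 50 was 143.8 in cells without such a share and 73.5 in cells with one. Leaving out the 8 barcodes alone gave 8.14, 4.48 and 3.45 for *Steap4*, *Abcc9* and *Kcnj8*.

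*Cspg4* differed within the upper range as well. In the cells at 50 or over without such a share it was at 3.16 (173 transcripts), and in the 28 cells with one it was at 0.108 (1 transcript). *Abcc9*, *Kcnj8* and *Steap4* stood the other way in the same cells, at 0.640 against 2.48, 0.530 against 1.83 and 0.219 against 1.51. In these 28 cells the channel genes thus lay between the pooled levels of both ranges, as did *Mcam* at 6.14.

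**Figure D4:**
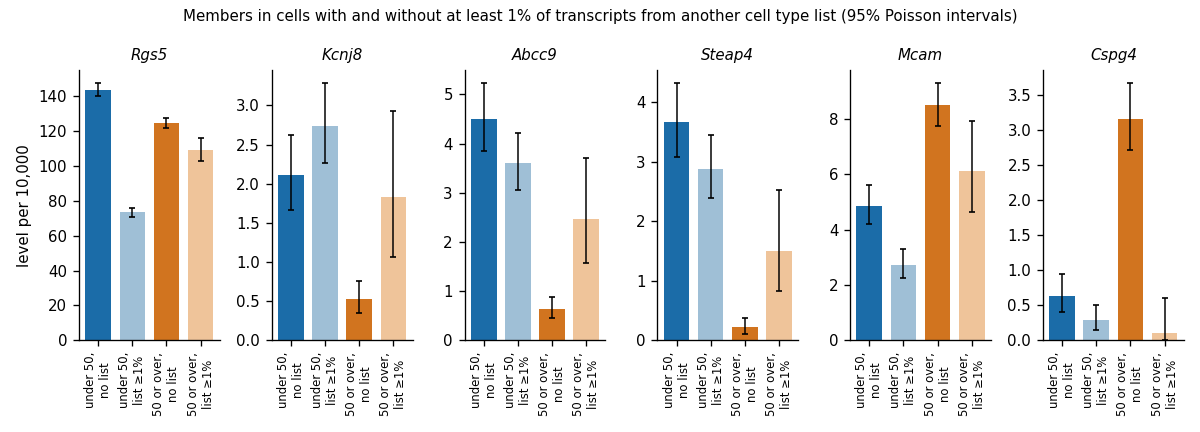
Levels of 6 members per 10000 in cells under 50 (blue) and at 50 or over (orange), dark without and light with at least 1% of transcripts from another cell type list; error bars are 95% Poisson intervals. *Cspg4* stands high only in the dark orange cells, at 3.16, and *Kcnj8*, *Abcc9* and *Steap4* are lowest there.

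Co-detection was compared at 1 depth, as the expected share of cells with a UMI over all ways of thinning each cell to 1000 UMIs outside Gm genes, which left out 13 cells under 50 and 10 of the others. At this depth *Kcnj8* was found in 19.0% of 163 cells under 50 and in 6.34% of 144 cells at 50 or over (binomial intervals 13.3 to 25.9 and 2.96 to 11.6). *Abcc9* was found in 31.4% and 7.70%, *Steap4* in 18.9% and 3.01%, *Cspg4* in 5.17% and 19.8% and *Mcam* in 32.3% and 50.8%. The unthinned shares were 42.6% and 15.6% for *Kcnj8*, 60.8% and 20.8% for *Abcc9*, 35.2% and 7.79% for *Steap4*, 16.5% and 47.4% for *Cspg4* and 61.9% and 79.9% for *Mcam*. In mast cells, which should lack these genes, the thinned shares were 0.15% for *Kcnj8*, 0.29% for *Abcc9* and 0.07% for *Steap4*, but 7.71% for *Pdgfrb*, which was found in 43.3% and 31.2% of Smoothmuscle cells under and over 50, with a median depth of 3295 UMIs against 3904.5 in Smoothmuscle cells.

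The channel subunits were found together in 8.30% of cells under 50, 1.39 times the 5.97% that the product of their single shares gives. *Kcnj8* and *Steap4* were together in 5.40%, 1.51 times the product, *Kcnj8* and *Pdgfrb* in 10.5%, 1.27 times, and *Abcc9* and *Pdgfrb* in 16.8%, 1.23 times. At 50 or over the channel subunits were together in 2.36% of cells, 4.84 times the product of 0.49%, on 3.40 expected cells; as measured, 16 cells there had both, against 4.99 from the product, and 62 under 50, against 45.6. Among pairs without *Rgs5* whose product was at least 5 cells, 15 of 16 lay above the product under 50 and 5 of 7 at 50 or over, with median ratios of 1.17 and 1.02. The pairs kept in both ranges differ, so these medians do not compare like pairs, and no share over pairs of other genes is given. Under 50 the minimum left out all these pairs of *Cspg4*. Their ratios were 0.71 with *Kcnj8*, 0.76 with *Abcc9*, 0.64 with *Steap4*, 0.75 with *Pdgfrb*, 0.93 with *Ndufa4l2* and 0.53 with *Cox4i2*. They were 1.03 with *Higd1b* and 1.15 with *Mcam*. These are descriptions of cells of 1 sample, which differ in cell type and in RNA content.

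Most cells showed the whole set only in part. At 1000 UMIs a cell under 50 had 2.71 members on average and a cell over 50 had 2.48, against 0.09 in mast cells. At least 5 members were found in 11.7% of cells under 50 (7.23 to 17.7) and in 4.82% at 50 or over (1.95 to 9.71), intervals that overlap; as measured, without thinning, the shares were 56.8% and 42.2%. No cell had more than 8 of the 10. As measured, *Kcnj8* was found in 75 cells under 50, all with *Rgs5*, against 69.9 from the product of the shares. Of these 75 cells 6 had *Cspg4*, against 12.4 from the product. At 50 or over 6 cells had both *Kcnj8* and *Cspg4*, against 11.4.

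**Figure D5:**
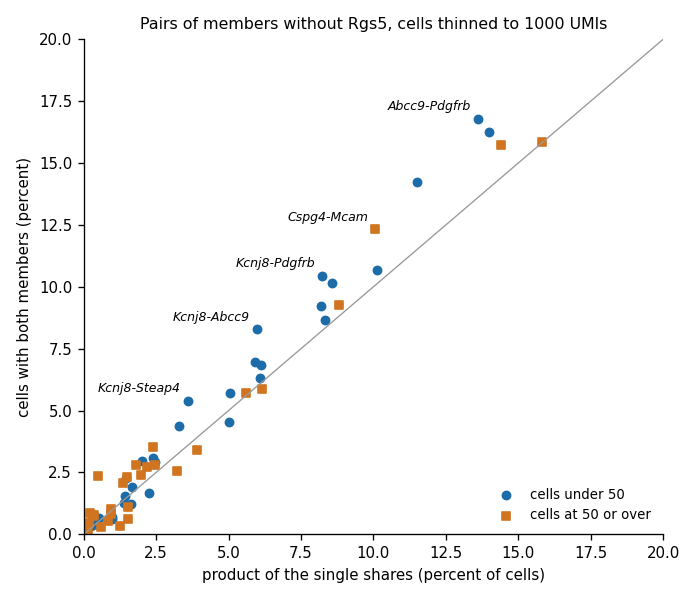
Percent of cells with both members of a pair against the product of the single shares, for the 36 pairs without *Rgs5* in cells under 50 (blue circles) and at 50 or over (orange squares), each cell thinned to 1000 UMIs; the line marks equality. *Kcnj8* and *Abcc9* lie at 8.30% against 5.97%.

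Of 33 other genes listed as pericyte genes, 25 had at least 20 transcripts: 4 were at least 2-fold higher under 50, 1 at 50 or over and 20 neither, with a median ratio of 0.92 beside 0.97 over all genes. Higher under 50 were *Colec11*, a collectin (2.14 and 0.641, ratio 3.34, 2.36 to 4.81), *P2ry14*, a receptor for UDP-sugars (3.04, 1.49 to 6.84), *Vtn*, vitronectin (2.47, 1.82 to 3.40), and *Art3*, an ADP-ribosyltransferase relative (2.26, 1.37 to 3.85), each in all 4 libraries. *Nrip2*, which encodes a nuclear receptor interacting protein, was lower under 50 (ratio 0.31, 0.21 to 0.44) in all 4. The 5 highest of the list, *Notch3* (8.85 and 11.6), *Ebf1* (10.2 and 7.71), *S1pr3* (3.79 and 5.35), *Gucy1a3* (3.21 and 5.02) and *Lhfp* (3.86 and 3.56), differed by less than 2-fold.

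Among 16 paralogs and partners, 8 had at least 20 transcripts. *Rgs16*, a second regulator of G protein signals, was at 18.8 under 50 and 5.07 over it (ratio 3.71, 3.29 to 4.20), unlike *Rgs5* and unlike *Rgs4*, at 3.11 and 3.16. *Pdgfra*, the other PDGF receptor and a fibroblast gene, was higher under 50 (0.688 and 0.125), and the ligand gene *Pdgfb* had 24 transcripts, 0.11 and 0.23 per 10000, over 2-fold apart with an interval of the ratio from 0.19 to 1.17. *Pdgfa* was at 3.35 and 6.50, a ratio of 0.52. *Abcc8*, the other receptor subunit of such channels, had 1 transcript.

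Over the 330 cells, the genes whose log2(level + 1) was most like that of the summed members included *Mylk*, *Ano1*, *Sparcl1*, *Notch3*, *Cald1*, *Mprip*, *Sept4*, *Cpe* and *Ebf1*. Their Pearson r lay between 0.43 and 0.49, against a median of 0.06 over 5102 genes. The sum mostly follows *Rgs5*, with which it has r = 0.96, and the points share libraries and depth (r of the sum with depth 0.13). *Mylk*, *Cald1* and *Mprip* belong to the contractile apparatus.

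In mast cells the members summed to 1.06 per 10000, against 135.9 in Smoothmuscle cells, and *Pdgfrb* made up most of that. *Pdgfrb* was at 0.647, 0.715 and 0.787 in wt mice 1, 2 and 3 and at 0.641, 0.586 and 1.04 in KO mice 1, 2 and 3. The mice of both genotypes overlap, and KO mouse 3, which had 10 of the 30 mast cell libraries and the deepest cells outside Gm genes, was the highest. By all transcripts KO mouse 2 was deeper, with a median of 7097 against 5607. Gm genes held 14.2% of transcripts in KO mouse 3 and 36.7% to 58.0% in the other mice. The means were 0.716 ± 0.070 (SD, n = 3) in wt and 0.757 ± 0.250 (SD, n = 3) in KO, and limma gave a log2 difference of 0.07 ± 0.25 (SE) with an adjusted p of 0.975. The level in Smoothmuscle cells was 5.74 times that of all mast cells, and 4.76 times that of the highest mouse.

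*Pdgfrb* UMIs were found in 627 of 2477 mast cells (25.3%, and 7.71% at 1000 UMIs) and in all 30 libraries, at 0.119 to 1.59 per 10000. KO mouse 3 gave 372 of the 627, which was 39.8% of its cells, against 14.5% to 22.1% in the other mice. All 627 cells also had transcripts of *Cpa3*, and 26 of them had any other member. Fibroblast genes were at 39.5 per 10000 in these cells and at 3.74 in the 1850 without *Pdgfrb*, and their median depth was 5231 transcripts outside Gm genes against 2616. The median depth was 4776 in KO mouse 3 and 1889 to 3002 in the other mice, so depth and mouse cannot be told apart here. In the 2421 mast cells without 1% from another cell type's list, *Pdgfrb* was at 0.920, against 0.867 in all. The next gene on the same strand, *Csf1r*, begins 15537 bases away, so the gene models do not overlap.

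The other 9 members were at or near 0 in mast cells. *Higd1b* had no transcript in 2477 cells (3 counts would be a share of 0.121%), and its level in Smoothmuscle cells was 227-fold that of 3 counts over all mast cells. *Rgs5* was at 0.0566, and Smoothmuscle cells were 2008-fold higher; 1 cell of wt mouse 2 held 28 of the 29 *Rgs5* transcripts of that mouse. *Mcam* had 5 transcripts, *Steap4* 10, *Kcnj8* 20, *Abcc9* 25, *Ndufa4l2* 31 and *Cspg4* 39, of which 21 were in wt mouse 3. These 9 genes did not reach 10 transcripts in 3 mice and were not in the fit. By the level per mouse, *Kcnj8*, *Steap4* and *Cspg4* were lower in all 3 KO mice than in all 3 wt mice, on 1 to 21 transcripts a mouse or none, with an exact two-sided permutation p of 0.1, the smallest that 3 against 3 allows. In wt mouse 3, 1 cell held 14 of the 21 *Cspg4* transcripts, and in wt mouse 1, 1 cell held 7 of the 10 *Kcnj8* transcripts. Of the 8601 genes in the fit, 6.31% had all KO mice below all wt mice. The 3 named genes had too few transcripts for the fit, so this share is no like background for them.

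In the fit 0 of 8601 genes passed an adjusted p of 0.05 with limma, 503 had an unadjusted p under 0.05, and *Pdgfrb*, the only member tested, was not among them; with voom weights 2 genes passed. *Tln1* itself was at 4.51, 5.92 and 6.71 in wt mice and at 5.57, 4.33 and 3.63 in KO mice. KO mice 2 and 3 lay below all wt mice and KO mouse 1 lay among them. Counting at the 3′ end need not show a deletion elsewhere in the gene, and where the reads lie was not examined. *Tln1* thus does not check the labels here.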

How the data were processed

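Single cells of ear skin were measured by mCEL-Seq2 in 34 libraries. Of these, 4 held Smoothmuscle cells and 30 held mast cells of 3 wt and 3 KO mice. The digit after wt and KO in the sample titles was taken as the mouse, which neither the labels nor the paper state in words. Per the labels and the paper's methods, the authors aligned reads with BWA 0.6.2-r126 to mouse ENCODE VM9 gene models (mm10), discarded reads with several places, merged overlapping loci and converted UMI counts to transcripts with a binomial correction. These corrected transcripts are what the authors deposited, for 192 barcodes a library, neither scaled nor on a log scale; with 4096 possible UMIs of 6 bases, all 34 tables went back to whole UMIs within 1e-06. The labels name poly(A) RNA for mast cells and total RNA for Smoothmuscle cells.

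Cells with over 1000 transcripts and at most 2% of *Kcnq1ot1* were kept, by the filters the study states; the second removed no cell. This left 330 Smoothmuscle cells, the number the study gives, but 2477 mast cells, where the study gives 1895; the reason is not known here. Doublets were not removed. Each library uses 1 of 2 sets of 96 barcodes, so libraries 13 and 15 share 82 cell barcodes and 14 and 16 share 60; outside the 8 barcodes of the other set, the same barcode was the nearest cell of the other library by log2 values in 0 of 80 and 1 of 58. Transcripts were summed over cells and given per 10000 outside genes named Gm plus digit, which held 18.6% of Smoothmuscle and 36.1% of mast cell transcripts. The 330 Smoothmuscle cells held 1440270 transcripts outside Gm genes and the 2477 mast cells 9909220. Intervals at 95% are exact Poisson, exact binomial or, for ratios, conditional exact (Clopper-Pearson), and cover counting error only; of an expected number of cells they are the same binomial formula. For wt against KO mice, log2(transcripts per 1000000 + 1) after TMM scaling by own code went into limma (version 3.58.1, R 4.3.3, trend on) for every gene that reached 10 transcripts in 3 mice or more, with Benjamini-Hochberg adjustment at 0.05. On data simulated for this comparison with 200 changed genes and a dispersion of 0.02, it found 57.8% of genes changed 2-fold and 97.9% of those changed 4-fold, with 4 and 7 false calls. This dispersion was set and not estimated from these mice, so the rates need not hold for them. Nothing says that the mast cell samples of a genotype come from separate litters, so p-values measure the spread between these mice.

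The members, the lists, the cut of 50 and the tests were chosen with earlier results of these data known. All members were named, of other pericyte genes those at least 2-fold apart or among the 5 highest, of paralogs those described, and the 10 genes with the highest r, among genes in at least 10% of cells without members, Gm, mt- and ribosomal protein genes; 1 of these 10 is not reported here. Cell type lists, of 4 to 12 genes each, gave in cells under and over 50 these summed levels: keratinocyte 14.7 and 0.58, striated muscle 8.00 and 5.54, Schwann 4.25 and 0.28, melanocyte 0.08 and 0, leukocyte 3.24 and 3.00, mast cell 0.15 and 0.20 and dissociation response 107.8 and 95.6. Alternatives changed the cells, depth, cut, scaling, libraries, mice and test. Python 3.11 with numpy 2.4.6 and scipy 1.17.1 was used. The lists of barcodes deposited for the series were not used here.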

Additional observations from a re-analysis of the deposited data

Results flagged for a closer look

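In 4 of 29 groups of 4 libraries checked, 1 library stood apart from the others by Dixon's test at 95%, which by chance happens in about 1 of 20 groups. *Steap4* was at 3.14 per 10000 in library 14, and at 1.55, 1.65 and 1.63 in libraries 13, 15 and 16. *Cspg4* was at 0.948 in library 16, the shallowest, and at 1.53 to 1.59 in the others. *Mcam* was at 6.64 in library 15 and at 5.28 to 5.50 in the others. *Rgs5* in cells at 50 or over was at 96.8 in library 14 and at 129 to 132 in the others.

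Signal was also found outside the barcodes that held the cells. In the set of 96 barcodes without other cells, 8 barcodes passed 1000 transcripts and had striated muscle genes at 266 per 10000, against 3.58 in the other cells under 50. The barcodes of that set held 0.513 *Rgs5* UMIs each on average.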

How the results depend on the processing

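The number of members at least 2-fold higher under 50 was 3, and it was 4 with the cut at 100 and with no minimum of transcripts. The number higher at 50 or over was 2, and 1 without cells with at least 1% from another cell type's list, as a mean over cells, after thinning to 1000 UMIs and at 3-fold; leaving out 1 library at a time gave 3 and 2 each time. The summed level, 135.9 per 10000, was 155.8 without cells of other types, 110.6 with Gm genes in the total, 133.3 as a mean over cells and 134.2 to 137.2 leaving out each library. The share of cells with at least 5 members (11.7% under 50 and 4.82% at 50 or over) was 56.8% and 42.2% without thinning, 1.82% and 0.717% at 500 UMIs and 42.1% and 19.1% at 2000 UMIs; with the cut at 100 it was 1.77% in the upper range. Leaving out each library gave 11.2% to 12.6% and 4.45% to 5.22%. Over 15 alternatives *Kcnj8*, *Abcc9*, *Steap4* and *Cspg4* kept their side by at least 2-fold in 15, and *Mcam* in 12. Among the 15, leaving out the *Kcnq1ot1* filter kept the same cells and so could not change a ratio. Whole UMIs in place of corrected transcripts changed the ratio of *Kcnj8* only from 3.39 to 3.40. The cause of the moves between alternatives was not tested. Co-detection already used whole UMIs, so there was no second value for them. The alternatives without the barcodes of the other set, and without other cell types among mast cells, were chosen after seeing the data.

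The log2 difference of *Pdgfrb* between KO and wt mast cells, 0.07, turned to -0.05 without wt mouse 1 and -0.15 without KO mouse 3, and leaving out each mouse gave -0.15 to 0.19; no member was called in any alternative. Genes called over the whole table were 0, 2 with voom weights, 1 without wt mouse 1 and 12 without KO mouse 1. Between mice with the same number, deviations from the genotype means had r of 0.16, -0.21 and -0.27. Mice with different numbers had r from -0.29 to 0.42. With 3 mice of each genotype and so wide a range, these values cannot decide whether the numbers pair the mice. With the mouse number as a replicate block the *Pdgfrb* difference was 0.07 with a limma adjusted p of 0.991, and 0 genes were called.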
